A study of Capra hircus with 2 samples.

Results

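The meiotic cohesin genes REC8, SMC1B, STAG3 and RAD21L1 were followed through the germ cells and the other cell classes of the fetal goat (Capra hircus) ovary. They are 4 of the 27271 features in the count files and were picked by symbol alone, a rule that uses no measured value. Their goat identifiers are ENSCHIG00000020164 (REC8), ENSCHIG00000026594 (SMC1B), ENSCHIG00000022562 (STAG3) and ENSCHIG00000022078 (RAD21L1). Droplet single-cell RNA sequencing was done on female ovary at the embryonic stages E125 and E85 (numbered in days), with 1 library per stage. The labels name no treatment, breed or allele and do not say how many fetuses entered a library. With 1 library per stage there was no replicate check, so no test was run and each difference describes these libraries.

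Cohesin is a ring of proteins that holds sister chromatids together. In dividing body cells it is built from SMC1A, SMC3, the kleisin RAD21 and STAG1 or STAG2. Meiotic cells put germ-line subunits in place of several of these. REC8 and RAD21L1 are kleisins that stand in for RAD21, SMC1B replaces SMC1A, and STAG3 replaces STAG1 and STAG2, while SMC3 is shared. In the fetal ovary germ cells pass through meiotic prophase and then arrest, and in mouse the cohesin loaded at that time is what later holds the oocyte's chromosomes together.

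The E125 library held 8346 barcodes and 49692252 unique molecular identifiers (UMIs, counts of captured molecules), and the E85 library 4397 barcodes and 17748948 UMIs. After a cell filter and doublet removal 7034 and 3832 cells were kept. They were clustered without the members, and 135 cells (1.92%) at E125 and 69 (1.80%) at E85 were called germ-cell-like from 11 detected markers that do not include the members. All 11 markers with a symbol were found at both stages. Markers of other classes summed to 1.84 to 341 CPM in the E125 germ-cell-like cells and 0.587 to 217 CPM at E85, against 7132 and 5655 CPM for the germ cell list. CPM is UMIs per 1000000 UMIs of the cells summed. The libraries shared 13 barcodes, 0 of them germ-cell-like in both. Depth per germ-cell-like cell differed greatly, with a median of 47236 UMIs at E125 and 4192 at E85. Droplets of 20000 or more UMIs, 76 at E125 and 22 at E85, carried 98.3% and 90.4% of the germ-cell-like UMIs.

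REC8, SMC1B and STAG3 were germ-cell transcripts at both stages, and RAD21L1 was not detected in germ cells. Of all REC8 UMIs in kept cells, 95.1% at E125 and 87.1% at E85 lay in germ-cell-like cells. The matching shares were 96.0% and 86.5% for SMC1B and 92.6% and 62.5% for STAG3. REC8, the meiotic kleisin kept at centromeres until the second division, reached 777 CPM in germ-cell-like cells at E125, against 11.7 CPM in all other kept cells. That was 66.4-fold higher (95% interval 60.1 to 73.5), and at E85 it stood at 924 against 15.99 CPM, 57.8-fold higher (50.4 to 66.6). SMC1B, the meiotic SMC1, had 252 against 3.05 CPM at E125 and 349 against 6.35 CPM at E85, which is 82.7-fold (68.2 to 101) and 54.9-fold (44.0 to 69.1). STAG3, the subunit that binds the kleisin, had 8.53 against 0.199 CPM at E125 and 17.6 against 1.23 CPM at E85, 42.8-fold (19.9 to 110) and 14.3-fold (7.73 to 27.3). These intervals and those below are exact and cover counting error only.

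**Figure D1:**
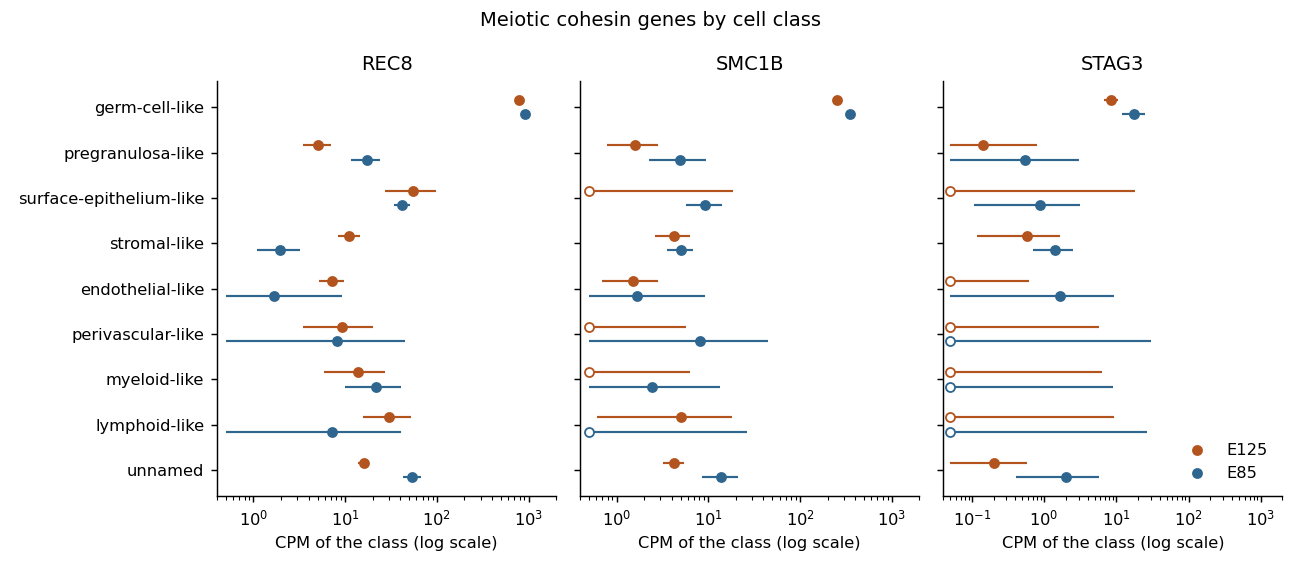
Level of REC8, SMC1B and STAG3 in each cell class, in CPM on a log axis, with E125 above E85 in each row. Bars are exact Poisson 95% intervals, open circles at the left edge mark 0 UMIs, and glia-like cells (77 and 3 cells) are not drawn; germ-cell-like cells stand at the right in all 3 panels.

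The subunits that all cells share were not raised in this way. SMC3, the partner of both SMC1 proteins, had 99.1 CPM in germ-cell-like cells at E125, against 424 CPM in other cells, a germ-over-other ratio of 0.234. At E85 the ratio was 0.727. RAD21, the mitotic kleisin, had ratios of 0.690 and 0.612, STAG1 0.162 and 0.358, and STAG2 0.203 and 0.216. SMC1A had 0.8005 at E125 and 1.42 at E85.

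RAD21L1, the kleisin seen early in prophase in mouse, gave 1 UMI in the whole E125 library, in a myeloid-like cell, and 0 at E85. In germ-cell-like cells 0 UMIs allow at most 0.358 CPM at E125 and 2.17 CPM at E85 by the Poisson interval. The smaller E85 sum sets the looser limit, and a low level there was not detectable at this depth.

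Within the germ-cell-like class the members were set side by side by stage. The E125 cells held 8018 REC8 UMIs, or 777 CPM (761 to 795), and the E85 cells 1574 UMIs, or 924 CPM (879 to 971), a ratio of 0.841 (0.797 to 0.889). SMC1B stood at 252 CPM from 2600 UMIs at E125 and at 349 CPM from 594 UMIs at E85, a ratio of 0.723 (0.661 to 0.792). STAG3 stood at 8.53 CPM from 88 UMIs and at 17.6 CPM from 30 UMIs, 2.06-fold lower at E125, with a ratio of 0.485 (0.317 to 0.760). Of the 3 members measured, meaning 50 or more summed UMIs, 0 were 2-fold or more higher at E125 and 1 was 2-fold or more lower. Of 9076 genes measured, 19.4% were that much higher and 17.6% that much lower, and with 3 members a count of 1 is not a result about them. With trimmed-mean scaling, which moves all log2 ratios by 0.26, 2287 genes were higher and 1051 lower, where the class totals gave 1763 and 1593, and STAG3 stood at -0.79 on the log2 scale, inside the 2-fold line.

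The REC8 ratio took either direction, depending on which droplets carried the sum. It was -0.25 on the log2 scale over all germ-cell-like cells, -0.81 in droplets of 100000 or more UMIs (54 at E125 and 6 at E85), and 0.89 without the 10 largest droplets of each library. Without the largest E85 droplet alone, which held 30.0% of the REC8 UMIs of the large E85 droplets, it was 0.036. REC8 was lower at E125 in 12 of 19 alternative settings and past 2-fold in 0, so no direction is read. The median mitochondrial share of the large droplets was 2.20% at E125 and 5.43% at E85, and its part in the stage ratios was not tested. SMC1B was lower at E125 in all 19 settings run, between -1.02 and -0.15. STAG3 was lower in all 19, between -3.16 and -0.50, and past 2-fold in 12 of them. The settings largely reuse the same UMIs, 2600 and 594 of SMC1B and 88 and 30 of STAG3, so they are not separate evidence. The -3.16 is from means of single-cell CPM, where 5 small E85 droplets had 1 STAG3 UMI each, at up to 1335 CPM.

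**Figure D2:**
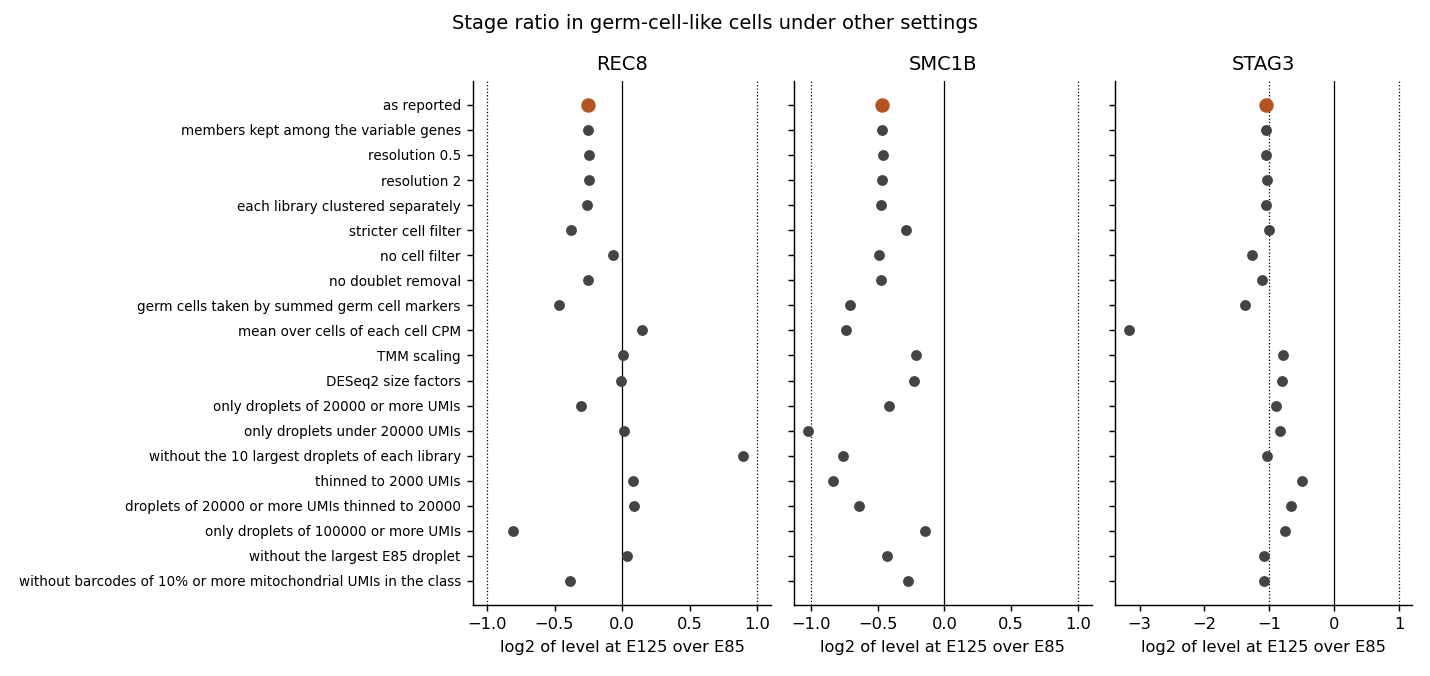
Log2 of the level in germ-cell-like cells at E125 over E85 for REC8, SMC1B and STAG3, as reported (orange) and under 19 other settings. Dotted lines mark 2-fold; REC8 falls on both sides of 0, while all SMC1B and STAG3 points lie to the left of it.

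The REC8 sums were then broken down by droplet. Among the 76 large E125 droplets REC8 had 2 to 330 UMIs, with a median of 91, and all 76 had at least 1. Scaled to the droplet's own UMIs that was 87.0 to 1487, with a median of 718 CPM. Among the 22 large E85 droplets REC8 had 0 to 445 UMIs, with a median of 26, and only 15 had any. The E85 range of 0 to 2075 CPM, with a median of 575, lay on both sides of the E125 range. The E85 droplets thus held both the highest REC8 level and the only zeros among large droplets.

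SMC1B did not have such zeros. It had 1 to 86 UMIs in the large E125 droplets, with a median of 31.5, and 1 to 88 in the E85 droplets, with a median of 16.5, and was present in 76 of 76 and 22 of 22. Its level ran from 19.3 to 624 CPM, median 251, at E125 and from 47.5 to 1550 CPM, median 299, at E85, and the stages overlapped. STAG3 had 0 to 6 UMIs per droplet at both stages and was seen in 45 of 76 and 12 of 22 droplets. RAD21L1 was seen in 0 of 76 and 0 of 22. REC8, SMC1B and STAG3 were found together in 45 of 76 large droplets at E125 and in 8 of 22 at E85.

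**Figure D3:**
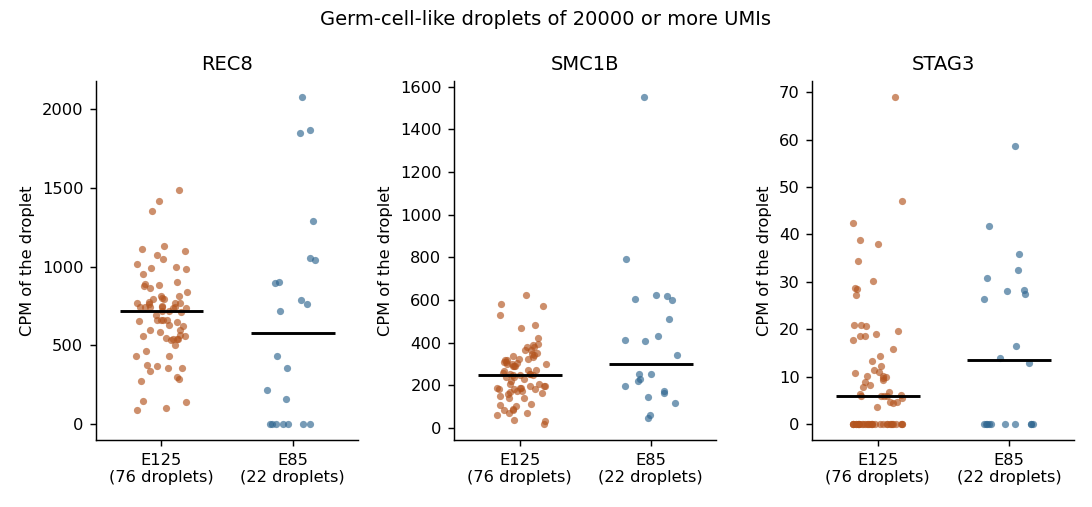
Level of REC8, SMC1B and STAG3 in each germ-cell-like droplet of 20000 or more UMIs, in CPM of the droplet, with E125 (76 droplets) left of E85 (22 droplets) and a line at the median. The 7 E85 droplets with REC8 at 0 and the 3 E85 droplets above the whole E125 range stand apart.

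How far the members varied was measured after every large droplet was thinned to 20000 UMIs. REC8 averaged 13.9 UMIs with an SD of 6.59 over E125 droplets and 13.1 with an SD of 13.6 over E85 droplets. The variance divided by the mean (1 for pure counting) was 3.12 and 14.2. For SMC1B the means were 5.08 and 7.97 and the quotients 2.06 and 5.86. STAG3 averaged 0.199 and 0.305 UMIs with quotients of 1.10 and 1.01. At means this low the quotient stays near 1 for most spreads, so it cannot tell how far STAG3 varied.

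The 7 large E85 droplets with REC8 at 0 held 21388 to 65092 UMIs each, with a median of 35253, against 74417 in the other 15. At the pooled rate of the 22 droplets they would have held 267 REC8 UMIs between them. That rate rests mostly on the 6 droplets of 100000 or more UMIs, which held 1176 of the 1485 REC8 UMIs, and none of the 7 is that deep. No conclusion on depth is drawn from it. The 7 droplets were looked at because of their zeros, so the values that follow are a description. SMC1B had 4 to 39 UMIs in them, with a median of 511 CPM, against 254 CPM in the other 15. DDX4, a germ-cell RNA helicase, had 10 to 48 UMIs in the 7. ZP3, which encodes a zona pellucida protein of the oocyte, had 2 to 107 UMIs with a median of 818 CPM, against 9059 CPM in the other 15. ZP4, another zona gene, was at 0 in all 7 and present in 9 of the 15. SPO11, which makes the DNA breaks that start recombination, was found in 4 of the 7 and in 1 of the 15. SMC3 had 473 CPM in the 7 droplets summed and 207 CPM in the 15. The share of mitochondrial UMIs was 5.41% to 17.4% in the 7, with a median of 10.9%, and 0.319% to 12.6% in the 15, with a median of 4.51%. Its part in the REC8 zeros was not tested.

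The small E85 droplets, under 20000 UMIs, were split by mitochondrial share at 3%, a line chosen after the values were seen, so this is a description and no second instance of the zeros. Of 15 with 3% or more mitochondrial UMIs, 1 had a REC8 UMI, and the sum gave 14.9 CPM. Of 32 with less, 21 had one, and the sum gave 921 CPM. SMC1B ran the other way, with 773 CPM in the 15 and 251 CPM in the 32, and so did DDX4, with 773 and 105 CPM. At E125 the small droplets showed no such gap, with REC8 at 510 CPM in 22 droplets of 3% or more and 578 CPM in 37 below, and SMC1B at 292 and 190 CPM.

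Across large droplets REC8 moved with ZP3, ZP4 and FIGLA but not with every germ cell gene. The Spearman correlation of REC8 with ZP3 was 0.43 at E125 (n = 76 droplets) and 0.82 at E85 (n = 22), and with FIGLA, the oocyte transcription factor that drives zona genes, 0.58 and 0.45. With ZP4 it was 0.36 and 0.66, while REC8 had -0.12 and -0.57 with DDX4 and 0.13 and 0.00 with DAZL, both general germ cell genes. SMC1B had -0.01 and -0.45 with ZP3. REC8 and SMC1B themselves had -0.03 and -0.28, and 0.19 at E85 among the 12 droplets of 40000 or more UMIs. REC8 had -0.41 and -0.67 with SMC3, whereas SMC1B had 0.14 and 0.42. All droplets of a stage share 1 library, and REC8 also had 0.54 and 0.52 with droplet UMIs and -0.42 and -0.60 with the mitochondrial share.

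**Figure D4:**
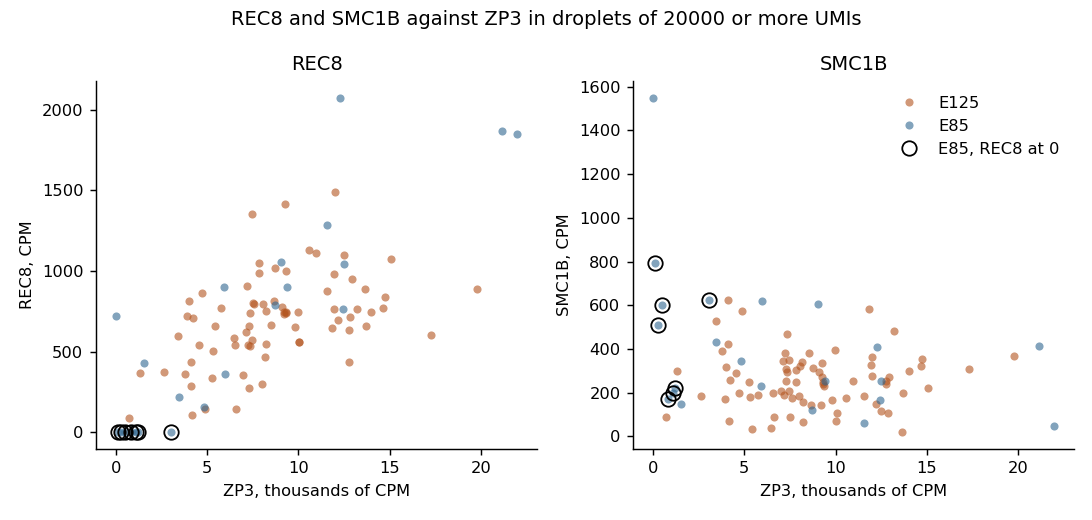
REC8 (left panel) and SMC1B (right panel) against ZP3 in germ-cell-like droplets of 20000 or more UMIs, E125 in orange and E85 in blue, all in CPM of the droplet. The 7 circled E85 droplets lack REC8 and sit at the low end of ZP3, while their SMC1B lies within the range of the other droplets.

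Among 1298 other genes that averaged 2 or more UMIs per thinned E125 droplet, the 5 most like REC8 were NDUFAB1 (rho = 0.61), RPP21 (0.61), FIGLA (0.58), CD164L2 (0.57) and NDUFB2 (0.57), over 76 droplets. At E85 these had 0.57, 0.36, 0.45, 0.81 and 0.19 over 22 droplets, so CD164L2 was the one with the highest value there. The 5 most like SMC1B were SUDS3 (rho = 0.45), CENPF (0.44), DNAJC21 (0.44), NASP (0.41) and KIF3A (0.40), with E85 values between 0.09 and 0.56. A single thinning in place of 20 shared 2 of the 5 names for each gene, so the order among near neighbours is loose.

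One E85 droplet stood apart from all others and was singled out after its values were seen. It had 27748 UMIs and the most UMIs of STRA8, the retinoic-acid-induced gate to meiosis, with 16. It held 20 REC8, 43 SMC1B and 88 SMC3 UMIs, 27 of SYCP1 (a synaptonemal complex protein) and 7 of HORMAD1 (a chromosome axis protein), and 0 of ZP3, ZP4, FIGLA and STAG3. Its SMC1B level, 1550 CPM, is the highest of any large droplet. Without it the E85 class sum of SMC1B is 329 CPM and that of REC8 927 CPM.

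To set the members against depth, each cell was thinned to 2000 UMIs, which left out 32 shallower cells at E125 and 15 at E85. REC8 was then found in 71.9% of 103 germ-cell-like cells at E125 (62.2 to 80.3) and 51.0% of 54 at E85 (37.0 to 64.9). Unthinned, the shares were 82.2% and 53.6%. SMC1B was found in 35.5% (26.3 to 45.5) and 49.2% (35.4 to 63.2), and unthinned in 70.4% and 69.6%. At 2000 UMIs the intervals of the stages overlapped for both genes, for REC8 only between 62.2 and 64.9. Such an overlap does not show that the stages are alike. Thinned to 5000 UMIs, REC8 was found in 93.1% of 86 cells at E125 and 57.8% of 31 at E85. At 2000 UMIs STAG3 was found in 1.47% and 2.09%, far too few for a comparison. In stromal-like cells, which should lack these genes and had median depths of 3259 and 2734 UMIs, REC8 was found in 2.31% and 0.344%, SMC1B in 0.965% and 0.861%, and STAG3 in 0.118% and 0.257%.

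Outside germ-cell-like cells REC8 stood above its stromal-like level in surface-epithelium-like cells, in an unnamed cluster of each library and in some other classes at 1 stage. At E85, stromal-like cells had only 1.94 CPM (1.08 to 3.19), pregranulosa-like cells 17.1 (11.6 to 24.3) and myeloid-like cells 21.7 (9.90 to 41.1). At E125, lymphoid-like cells had 30.3 CPM (15.65 to 52.9), against 11.1 CPM (8.45 to 14.4) in stromal-like cells. Pregranulosa-like cells stood below the stromal-like level at that stage, at 5.01 CPM (3.49 to 6.96). Surface-epithelium-like cells had 54.9 CPM of REC8 at E125 (27.4 to 98.2, from 11 UMIs in 7 of 28 cells) and 41.8 CPM at E85 (95 UMIs in 55 of 260 cells). REC8 was therefore counted against ZP3, an abundant oocyte transcript, in each class. Germ-cell-like cells had 8.17 REC8 UMIs per 100 ZP3 UMIs at E125 and 10.3 at E85. In surface-epithelium-like cells it had 78.6 and 100. In stromal-like cells the ratio was 9.25 at E125 and 6.76 at E85, and in pregranulosa-like cells 12.6 and 11.7, near that of the germ-cell-like cells. An unnamed E125 cluster of 287 cells, led by CITED1, NMB and KRT7 among its named genes, had 27.6 CPM (115 UMIs in 68 cells) and 45.5 REC8 per 100 ZP3. CITED1, NMB and EXPH5 lead both this cluster and the E85 surface-epithelium-like cells, so the groups may not be separate. No single cell carried the counts of the surface-epithelium-like cells and this cluster. The most REC8 UMIs in a cell were 2 in surface-epithelium-like cells at E125, 8 at E85 and 10 in the cluster. After thinning to 2000 UMIs, REC8 was in 13.1% of 25 surface-epithelium-like cells at E125 (3.06 to 32.6) and 6.93% of 256 at E85 (4.14 to 10.8). At E85 that lies above stromal-like cells (0.138 to 0.709). It overlaps both pregranulosa-like cells at 3.75% (1.85 to 6.71) and unnamed cells at 9.84% (6.81 to 13.6), which also lie above stromal-like cells. At E125 the interval overlaps that of stromal-like cells (1.53 to 3.33).

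SMC1B shared this REC8 pattern only in part. It had 0 UMIs in the 28 surface-epithelium-like cells at E125, which allows up to 18.4 CPM, above the 4.22 CPM of stromal-like cells. At E85 it had 9.24 CPM (5.72 to 14.1), and 8 of its 21 UMIs came from 1 cell. In the unnamed E125 cluster it had 2.16 CPM from 9 UMIs. Lymphoid-like cells had 30.3 CPM of REC8 at E125 from 12 UMIs and 7.23 CPM from 1 UMI at E85. Myeloid-like cells had 13.8 and 21.7 CPM from 8 and 9 UMIs, counts too small to order these classes. An unnamed E85 cluster of 222 cells, not called germ-cell-like, carried ZP3 at 1109 CPM. It had 82.3 CPM of REC8 (81 UMIs in 68 cells), at 7.42 per 100 ZP3 UMIs. Its SMC1B stood at 16.3 CPM (9.29 to 26.4), with 5 of 16 UMIs in 1 cell, against 5.03 CPM (3.58 to 6.88) in E85 stromal-like cells.

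IPO4, an importin gene, lies next to REC8, and the gene models of both overlap in RefSeq's goat annotation. Whether the counting used strand is not given in the sources used here, so reads in the overlap could be split between them. IPO4 had 28.4 CPM in germ-cell-like cells at E125 and 56.4 CPM at E85, against 5.95 and 7.38 CPM in other cells. It was found in 2 of the 7 E85 droplets with REC8 at 0 and in 15 of the other 15. Its Spearman correlation with REC8 over large droplets was 0.00 at E125 and 0.34 at E85. In surface-epithelium-like cells IPO4 had 9.98 and 8.36 CPM, close to its level in stromal-like cells, 6.91 and 7.87 CPM.

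The genes that work with the members were read from 5 lists, over germ-cell-like class sums. Each count stands against the 19.4% higher and 17.6% lower among all measured genes. Of the 5 shared core subunits, 0 were 2-fold or more higher at E125 and 2 were that much lower, with a median log2 ratio of -0.19, against -0.06 over all 9076 genes, and 0.07 with trimmed-mean scaling. SMC3 had 99.1 CPM at E125 and 264 CPM at E85, 2.66-fold lower, and 2.17-fold lower without the STRA8-rich E85 droplet. STAG1 had 10.4 and 21.1 CPM, 2.04-fold lower, and 2.01-fold without that droplet, but -0.77 on the log2 scale with trimmed-mean scaling, inside the 2-fold line. RAD21 (134 and 109 CPM), SMC1A (122 and 139 CPM) and STAG2 (23.9 and 22.3 CPM) stayed within 2-fold.

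Of 11 genes that load, release or fix cohesin, 8 were measured, with 0 higher and 1 lower, which is below the 17.6% of all genes, and a median of -0.71. The lower one was PDS5B, a regulator of cohesin on chromatin, with 27.7 CPM at E125 and 77.5 CPM at E85, 2.79-fold. NIPBL, the loader, had 258 and 387 CPM, and WAPL, the release factor, 111 and 171 CPM. Of 12 genes that protect or cleave cohesin, 8 were measured, with 0 higher and 0 lower and a median of 0.11. SGO1, a shugoshin, had 247 CPM at E125 and 183 CPM at E85, and SGO2, the shugoshin that shields REC8 in mouse oocytes, 67.6 and 123 CPM. ESPL1, the separase that cuts the kleisin, had 7.08 and 4.70 CPM.

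Of 10 genes of the chromosome axis and synaptonemal complex 8 were measured, with 0 higher and 4 lower at E125, against 17.6% lower of all genes, and a median of -1.02. Without the STRA8-rich E85 droplet 3 were lower and the median was -0.67, close to the -0.70 of the loading and release list without it. SYCE1 had 3.01 CPM at E125 and 14.1 CPM at E85, TEX12 29.8 and 90.4 CPM, SYCE2 24.9 and 71.0 CPM, and SYCP1 13.0 and 30.5 CPM. SYCP1 lost its call without the STRA8-rich droplet, which held 27 of its 52 E85 UMIs, and stood 1.15-fold lower. With trimmed-mean scaling it was at -0.97 on the log2 scale. These central-element and transverse-filament proteins hold homologs together in prophase. SYCP3, a chromosome axis protein, had 29.5 and 46.4 CPM and stayed within 2-fold. Of 10 condensin and SMC5/6 genes 9 were measured, with 0 higher and 0 lower and a median of -0.42. With trimmed-mean scaling NCAPH2, another condensin subunit, passed 2-fold on the higher side, at 1.17 on the log2 scale. SMC2, a condensin subunit related to SMC1B, had 259 and 394 CPM.

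**Figure D5:**
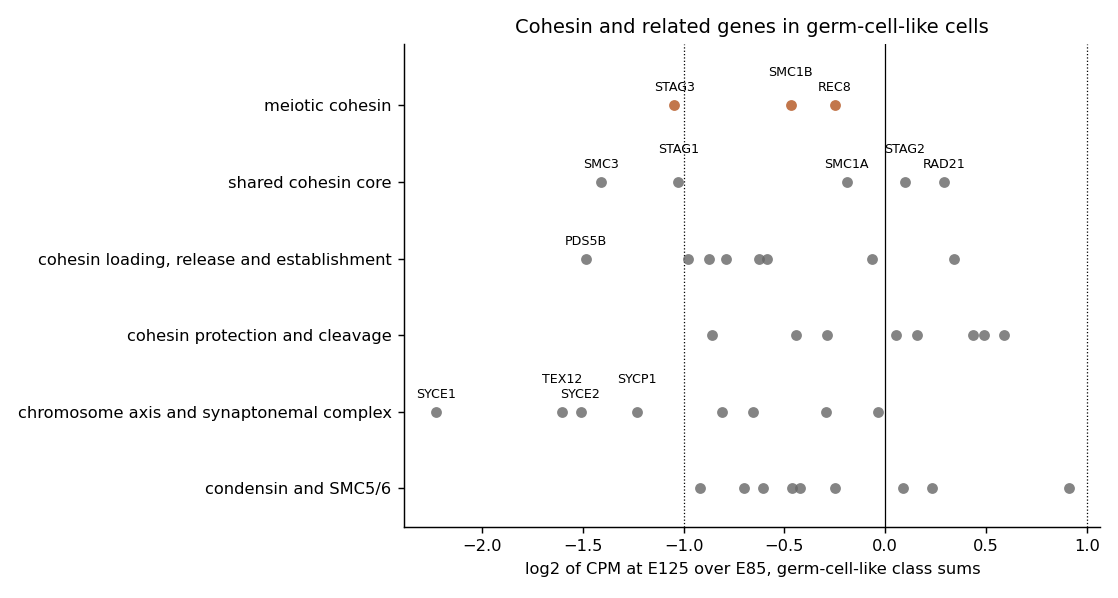
Log2 of the germ-cell-like class level at E125 over E85 for the 3 measured members (orange) and the measured genes of 5 related lists (grey), with dotted lines at 2-fold. Names are given for the members, the shared core and every gene past 2-fold. With class totals the genes past 2-fold all lie on the lower side. Trimmed-mean scaling brings STAG3, STAG1 and SYCP1 inside the line and takes NCAPH2 past it on the higher side.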

How the data were processed

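The values the authors deposited are raw UMI counts, 1 whole number for each gene in each barcode, and the barcodes were already called as cells. Per the labels' protocols a 10x kit of version 3.1 was used; its wording mentions testes, but tissue and sex are labelled ovary and female, which was followed. Cell Ranger 3.1 is named in the submitters' processing notes and 6.0.0 per the file headers. The sources used here do not name the genome build, the annotation or the use of strand.

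Barcodes with under 500 genes or over 20% mitochondrial UMIs were left out (809 at E125, 425 at E85), then those with the highest Scrublet scores at 0.8% per 1000 barcodes (503 and 140); some doublets will remain. Scanpy 1.11.5 clustered both libraries together (2000 variable genes without the members, 30 components, 15 neighbours, Leiden resolution 1). A marker's CPM was divided by its highest over the clusters of its library, leaving out markers under 20 CPM throughout. The class with the highest mean of these quotients named a cluster, given a mean of 0.3 or more and 3 or more markers at 0.25. A name was withdrawn where a cluster took different names in the libraries, or shared 3 of 10 leading genes with a better-scoring cluster of another class in the other library. The naming rule comes from earlier work on these data, where it was picked from 4 by the names it gave. The last step was added after the first names were seen here and left the germ-cell-like class as it was. Since the names were rebuilt here, they may differ from those of the study.

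For CPM, a class's counts of a gene in 1 library were added up and scaled by all its UMIs. Intervals are at 95%: exact Poisson for sums, conditional binomial for ratios, and Clopper-Pearson for shares. A count under 3 UMIs was set to a floor of 3 in a ratio. Shares after thinning are the expected values over all draws, and correlations the means over 20 draws; single draws, used at first, were replaced because they varied. The ratio step was tested on simulated data. TMM factors (edgeR 4.0.16) and size factors (DESeq2 1.42.0) served as alternative scalings only.

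The members, the lists and the limit of 20000 UMIs were chosen with earlier results of these data known. Named genes are the members, any gene of the lists, and the 5 genes most correlated with each member that averaged 2 or more UMIs. ZP3, ZP4, FIGLA, DDX4, SPO11, STRA8 and IPO4 were set beside the members after their values were seen. Motifs in promoters were not searched and no sequence is printed.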

Additional observations from a re-analysis of the deposited data

Results flagged for a closer look

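The barcodes left out by the cell filter, 809 at E125 and 425 at E85, were not in the reported comparisons but entered the setting without a cell filter. In that setting the germ-cell-like class held 193 barcodes at E125 and 157 at E85, against 135 and 69 as reported. In the left-out barcodes all 3 detected members were above their level in kept cells outside the germ-cell-like class. REC8 stood there at 66.9 CPM at E125 (91 UMIs in 47 barcodes) and 37.3 CPM at E85 (24 UMIs in 7), against 11.7 and 15.99 CPM in those kept cells. SMC1B stood at 46.3 CPM at E125 (63 UMIs in 18 barcodes) and 169 CPM at E85 (109 UMIs in 32), against 3.05 and 6.35 CPM. STAG3 stood at 2.94 CPM at E125 (4 UMIs) and 15.6 CPM at E85 (10 UMIs), against 0.199 and 1.23 CPM. The left-out E85 barcodes thus held more SMC1B than REC8 UMIs, while kept E85 germ-cell-like cells held 265 REC8 UMIs per 100 of SMC1B.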

How the results depend on the processing

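No paired analysis was possible because each stage has 1 library, and no library could be left out. Clustering resolution, separate clustering, keeping the members among the variable genes and leaving doublets in moved no member's stage ratio beyond its counting interval. On the log2 scale of E125 over E85, REC8 and SMC1B gave -0.38 and -0.29 with the stricter cell filter, -0.47 and -0.71 with germ cells picked by summed markers, and 0.15 and -0.74 as means of single-cell CPM, where STAG3 gave -3.16. They gave 0.0090 and -0.21 with TMM scaling, -0.0087 and -0.23 with DESeq2 size factors, 0.013 and -1.02 in droplets under 20000 UMIs, 0.89 and -0.76 without the 10 largest droplets, 0.078 and -0.83 thinned to 2000 UMIs, and 0.087 and -0.64 in large droplets thinned to 20000. REC8 alone moved to -0.070 without a cell filter. Settings added after the values were seen gave REC8 and SMC1B -0.81 and -0.15 in droplets of 100000 or more UMIs, -0.38 and -0.27 without barcodes of 10% or more mitochondrial UMIs, and REC8 0.036 without the largest E85 droplet. The cause was not tested for any of these.

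Genes 2-fold or more higher numbered 947 and those lower 733 at a minimum of 200 UMIs, and lower genes 7185 without a minimum (fewer or more genes tested) and 1051 with TMM scaling. With germ cells picked by summed markers (583 and 191 barcodes), germ over other cells on the log2 scale was 5.17 for REC8 (6.05 as reported), 5.36 for SMC1B and 4.29 for STAG3 at E125, and 5.51 for REC8 at E85. Shares of cells depended on depth by construction: REC8 at E125 stood at 82.2% unthinned, 46.7% at 1000 and 93.1% at 5000 UMIs. At E85 it stood at 53.6% unthinned, 34.1% at 1000 and 57.8% at 5000 UMIs. SMC1B stood at 70.4%, 20.2% and 65.9% at E125 and at 69.6%, 29.7% and 77.0% at E85, and STAG3 at 33.3% and 24.6% unthinned. STAG3 rests on 88 and 30 UMIs, and depth limits any statement on RAD21L1.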
